A study of Mus musculus with 6 samples.

Results

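The genes described are 10 immediate early and stress response genes, Fos, Fosb, Jun, Junb, Jund, Atf3, Egr1, Ier2, Btg2 and Gadd45b, chosen by symbol among the 27998 genes of the count tables. They were followed across 6 libraries of droplet-based scRNA-seq of C57BL/6J mouse cardiomyocytes (CMs), 1 library for diploid (2n) and 1 for tetraploid (4n) cells of each of 3 ages. E16.5 is embryonic day 16.5, P1 and P5 are postnatal days 1 and 5, and ploidy was read from the Hoechst stain for DNA, so that E16.5-2n stands for the diploid CMs of embryonic day 16.5. In all groups the left ventricle was dissociated with enzymes, and the cells were stained for viability, fixed in methanol, stained for the CM marker MYH1 and sorted. No animal carried a transgene or received a treatment, and cells of 3 sorts, each from 1 litter, were pooled before each library was made. The pools could not be separated again, so that each group is 1 library, no test between conditions was possible, and library and condition cannot be told apart.

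Immediate early genes are transcribed within minutes of a stimulus without new protein synthesis, and their messages are short-lived. Fos and Jun type proteins pair through leucine zippers to form the transcription factor AP-1, Atf3 is a related bZIP factor induced by stress, Egr1 is a zinc finger factor, Ier2 is a nuclear protein of the same early wave, and Btg2 and Gadd45b are stress-induced regulators of growth arrest. In the heart the group is known for its response to stretch, hormones and injury, and in many tissues its transcripts are known to accumulate while cells are dissociated. All cells were fixed only after dissociation and no undissociated tissue was analysed here, so that the part of dissociation in the levels was not tested.

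A stretch of DNA before the start of these genes is shown because several of the genes share a short motif there. RefSeq promoter sequences of GRCm38.p6 matched 8 of the 10 genes, all but Egr1 and Ier2. The core of the cAMP response element, TGACG on either strand, lay in the 170 bases before the start in 5 of these 8 genes and in 14.4% of all 32851 promoters of the table over the same length. The 5 stretches are given 5′ to 3′ along the gene, with the bases of each match in capitals.

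Fos: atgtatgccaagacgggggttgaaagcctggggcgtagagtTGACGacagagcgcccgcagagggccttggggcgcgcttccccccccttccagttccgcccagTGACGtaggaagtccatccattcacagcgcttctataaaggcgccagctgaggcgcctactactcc

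Fosb: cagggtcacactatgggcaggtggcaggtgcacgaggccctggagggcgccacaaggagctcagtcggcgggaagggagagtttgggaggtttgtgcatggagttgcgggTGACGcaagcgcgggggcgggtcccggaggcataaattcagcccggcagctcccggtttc

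Junb: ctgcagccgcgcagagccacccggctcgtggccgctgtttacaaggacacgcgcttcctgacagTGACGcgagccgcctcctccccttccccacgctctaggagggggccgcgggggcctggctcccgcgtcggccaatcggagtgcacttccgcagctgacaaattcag

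Atf3: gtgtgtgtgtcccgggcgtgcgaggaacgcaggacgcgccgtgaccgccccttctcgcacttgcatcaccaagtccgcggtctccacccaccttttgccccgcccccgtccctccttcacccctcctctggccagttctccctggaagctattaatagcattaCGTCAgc

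Btg2: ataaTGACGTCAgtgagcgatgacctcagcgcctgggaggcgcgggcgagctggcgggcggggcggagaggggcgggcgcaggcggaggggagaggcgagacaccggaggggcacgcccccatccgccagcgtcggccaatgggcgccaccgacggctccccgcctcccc

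The Fos stretch lies at chr12:85473720-85473889 on the plus strand and holds the motif at 129 and at 66 bases before the start, with a TATA box (TATAAA) at 33 bases. The Fosb stretch lies at chr7:19310046-19310215 on the minus strand, with the motif 60 bases before the start. The Junb stretch lies at chr8:84978749-84978918 on the minus strand, with the motif at 106 bases. The Atf3 stretch lies at chr1:191183334-191183503 on the minus strand, with the motif on the opposite strand, 7 bases before the start. The Btg2 stretch lies at chr1:134079156-134079325 on the minus strand and holds the motif on both strands, overlapping as the full palindrome TGACGTCA at 166 bases, a match found in 1.43% of all promoters. The motif TGANTCA, to which AP-1 itself binds, was in none of the 8 stretches and in 4.75% of all promoters, and the CArG box, the binding motif of Srf, was in none of the 8 and in 1.02% of all. The GC-rich site GCGNGGGCG, to which Egr1 binds, was in Fosb, Btg2 and Gadd45b and in 4.02% of all promoters. The gene positions given with the levels come from the GENCODE vM21 annotation (GRCm38), whose gene start is that of RefSeq for Fos but not for Fosb, Junb, Atf3 and Btg2. The whole Atf3 stretch lies inside the gene span of that annotation (chr1:191170296-191218039), so that the start it precedes lies within the gene. These matches describe letters in a window, not bound sites, and the motifs were chosen with the sequences in view. Bases farther than 170 from the start were not searched, so that a motif absent here can lie farther upstream.

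The cells were CMs by their markers. Of 31156 cells, 30733 had at least 1 UMI of each of Tnni3, Tnnt2, Tnnc1 and Actc1 and were kept as CMs, between 3654 in P5-4n and 7340 in P1-2n. Median UMIs per CM ranged from 1831 in P1-2n to 4658 in P5-4n, and mitochondrially encoded genes took 8.16 to 8.28% of the UMIs at E16.5 and 16.3 to 18.0% after birth. UMIs of stromal marker genes were also present. The summed level of 6 fibroblast markers was, in order of age, 126, 131 and 243 counts per 1000000 UMIs (CPM) in the 2n libraries and 750, 886 and 334 CPM in the 4n libraries. The summed level of 6 endothelial markers was 26.0, 26.8 and 59.0 CPM in the 2n libraries and 101, 115 and 61.6 CPM in the 4n libraries. Each fibroblast, endothelial, mural and immune marker had UMIs in every library, with Ptprc in E16.5-2n as the exception at 0. Between 17 and 62 cell barcodes were shared by each pair of libraries, and 1003 cells carried a barcode also found in another library, without which no log2 ratio moved beyond its interval. No doublet caller was run.

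All 10 genes were detected in CMs of all 6 libraries, with 193 to 5269 UMIs per gene and library. The level of a gene is its UMIs summed over CMs per 1000000 UMIs of all genes, with an exact 95% Poisson interval. Values of 3 libraries of a ploidy are given in the order E16.5, P1 and P5. The summed level of the 10 genes was 1424 CPM (1405 to 1444), 720 (707 to 733) and 356 (348 to 365) in the 2n libraries and 1369 (1349 to 1390), 1008 (994 to 1022) and 375 (366 to 384) in the 4n libraries. The E16.5 libraries were thus highest and the P5 libraries lowest, and at P1 the 4n library lay above the 2n library. A lower level can mean fewer cells with the transcript or less of it per cell, and the shares of cells are given further on. Intervals throughout cover counting error only.

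Fos, the founding AP-1 subunit of its type (chr12:85473890-85477273, 4 exons), was at 235, 178 and 96.8 CPM in the 2n libraries and 215, 268 and 90.5 CPM in the 4n libraries. P1-4n was highest and both P5 libraries were lowest, and these P5 libraries did not differ beyond counting error (log2 ratio of 4n over 2n -0.10, 95% interval -0.19 to 0.00). Fosb, its close relative (chr7:19302696-19310051), was at 22.4, 20.8 and 10.8 CPM in the 2n libraries and 33.1, 36.4 and 11.6 CPM in the 4n libraries. Fosb was higher in the 4n than in the 2n library at E16.5 (log2 ratio 0.56, 0.35 to 0.77) and at P1 (0.81, 0.62 to 1.00). In the order of its levels, P1-4n and E16.5-4n, E16.5-2n and P1-2n, and the P5 libraries were pairs of neighbours that did not differ beyond counting error.

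Jun, the partner of Fos in AP-1 (chr4:95049034-95052222, a gene of 1 exon), was at 182, 131 and 66.9 CPM in the 2n libraries and 194, 153 and 73.3 CPM in the 4n libraries. Its libraries kept the order of age, with the 4n library slightly above the 2n library at each age. Junb, which often opposes Jun at AP-1 sites (chr8:84974484-84978718), was at 92.7, 40.0 and 18.5 CPM in the 2n libraries and 99.5, 69.4 and 21.1 CPM in the 4n libraries. Jund, the most steadily expressed of the Jun type genes in many tissues (chr8:70698949-70700616), was at 31.7, 21.3 and 25.3 CPM in the 2n libraries and 39.1, 36.7 and 24.4 CPM in the 4n libraries. Jund was the exception among the 10 genes, since its P5-2n level lay above its P1-2n level (log2 ratio 0.24, 0.04 to 0.45) and in the order of its levels E16.5-4n and P1-4n, P5-2n and P5-4n, and P5-4n and P1-2n were neighbours that did not differ beyond counting error.

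Atf3 (chr1:191170296-191218039) had the widest range of the 10 genes. It was at 253 (245 to 261), 56.6 and 22.5 (20.4 to 24.8) CPM in the 2n libraries and 187 (179 to 194), 65.0 and 25.8 (23.5 to 28.2) CPM in the 4n libraries. Every embryonic level exceeded every P1 level, and every P1 level exceeded every P5 level. Egr1 was at 116, 88.1 and 33.6 CPM in the 2n libraries and 129, 145 and 39.2 CPM in the 4n libraries. As for Fos and Fosb, its highest library was P1-4n, and all neighbours in its order differed beyond counting error.

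Ier2 (chr8:84661331-84662852, 1 exon) was at 173, 63.2 and 26.6 CPM in the 2n libraries and 180, 90.4 and 28.5 CPM in the 4n libraries. Btg2 (chr1:134075170-134079120) was at 155, 49.3 and 25.1 CPM in 2n and 158, 63.7 and 25.9 CPM in 4n CMs. Gadd45b (chr10:80930073-80932204) was at 164, 72.3 and 30.2 CPM in 2n and 135, 80.3 and 34.8 CPM in 4n CMs. These 3 genes stepped down with age in both ploidies, and for Ier2 and Btg2 the 2n and 4n libraries of E16.5 and of P5 did not differ beyond counting error.

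**Figure D1:**
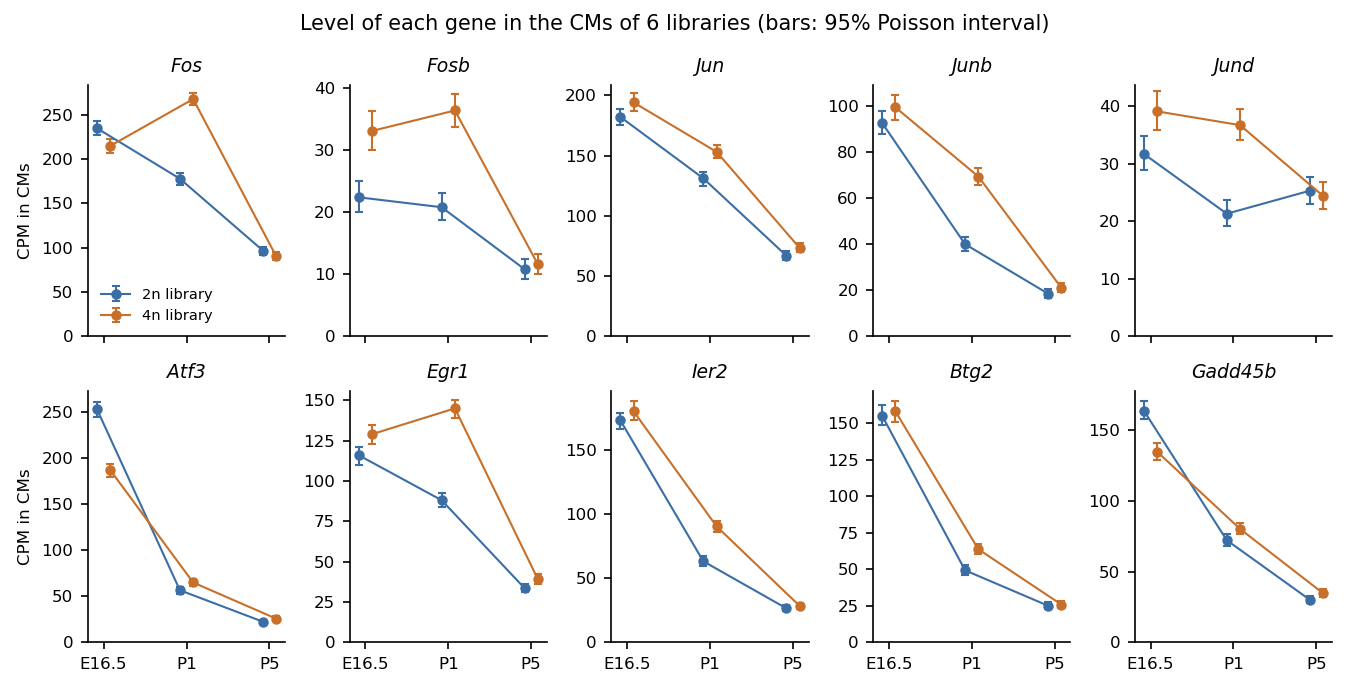
Level of each gene in CPM (vertical axes from 0, a different scale in each panel) at E16.5, P1 and P5 in the 2n (blue) and 4n (orange) libraries, with 95% Poisson intervals as bars and lines joining libraries of 1 ploidy. Fos, Fosb and Egr1 are highest in P1-4n, at 268, 36.4 and 145 CPM. Fosb did not differ there from E16.5-4n beyond counting error. Without CMs holding a UMI of a stromal marker other than Abcc9 and Lyz2, the log2 ratio of P1-4n over E16.5-4n for Egr1 was -0.10. Jund spans only 21.3 to 39.1 CPM, and the other genes are highest at E16.5 and lowest at P5.

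The comparison of P5 with E16.5 asked how the genes differed between embryonic and postnatal CMs. In 2n CMs 9 of the 10 genes were at least 2-fold lower at P5 than at E16.5, against 16.8% of the 9505 genes with at least 100 UMIs over both libraries. In 4n CMs the same 9 genes, all but Jund, were at least 2-fold lower, against 21.0% of 9600 genes. The log2 ratios of P5-2n over E16.5-2n were -3.49 (-3.64 to -3.34) for Atf3, -2.70 (-2.84 to -2.55) for Ier2, -2.63 (-2.78 to -2.48) for Btg2, -2.44 (-2.58 to -2.31) for Gadd45b and -2.32 (-2.50 to -2.15) for Junb. Egr1, Jun, Fos and Fosb followed with -1.78, -1.44, -1.28 and -1.06, and Jund was at -0.33 (-0.52 to -0.14), which turned to 0.10 when libraries were scaled by the median of ratios. In 4n CMs the ratios ran from -2.86 (-3.00 to -2.72) for Atf3 to -0.68 (-0.87 to -0.49) for Jund. In both ploidies Atf3, Ier2, Btg2, Gadd45b and Junb had the 5 lowest ratios. The median log2 ratio of the 10 genes was -2.05 in 2n and -1.84 in 4n CMs, beside -0.45 and -0.51 for all genes compared, so that all genes leaned the same way by a smaller amount.

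The differences were then taken in steps, from E16.5 to P1 and from P1 to P5, which share the P1 libraries. In 2n CMs 5 genes, Junb, Atf3, Ier2, Btg2 and Gadd45b, were at least 2-fold lower at P1 than at E16.5, against 12.1% of 9391 genes compared, and 3 genes were with scaling by the median of ratios. In the same step Fos was at -0.40 (-0.47 to -0.33) on the log2 scale, Egr1 at -0.39 (-0.50 to -0.29) and Fosb at -0.11 (-0.33 to 0.11), close to the median of -0.34 for all genes. In 4n CMs 2 genes, Atf3 (-1.52, -1.62 to -1.42) and Btg2 (-1.31, -1.41 to -1.21), were at least 2-fold lower at P1, against 11.6% of 9958 genes, and 1 gene was with scaling by the median of ratios. Fos (0.32, 0.25 to 0.39) and Egr1 (0.17, 0.08 to 0.26) were instead higher in P1-4n than in E16.5-4n, while all genes compared had a median of -0.30. Without CMs holding a UMI of a stromal marker other than Abcc9 and Lyz2, the Egr1 ratio turned to -0.10, and that of Fos was 0.30. The percentages of all genes for this step were taken without scaling by the median of ratios.

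From P1 to P5 in 4n CMs, 9 of the 10 genes were at least 2-fold lower, against 5.85% of 9764 genes compared. Egr1 had the lowest ratio, -1.88, followed by Junb with -1.71, Ier2 with -1.67, Fosb with -1.64 and Fos with -1.57, and Jund stood at -0.59 (-0.76 to -0.42). In 2n CMs 5 genes, Junb, Atf3, Egr1, Ier2 and Gadd45b, were at least 2-fold lower, against 1.98% of 9230 genes, and Fos, Fosb, Jun and Btg2 lay between -0.97 and -0.88. Without CMs holding stromal marker UMIs the count in 2n CMs was 8, whereas the 1.98% of all genes was taken with these CMs kept. The median ratio of the 10 genes was -1.04 in 2n and -1.45 in 4n CMs for this step, beside -0.09 and -0.16 for all genes.

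The comparison of 4n with 2n CMs asked how ploidy and the levels went together at each age. No gene of the 10 reached a 2-fold difference in either direction at any age, against 4.64%, 5.23% and 1.87% of all genes that were at least 2-fold higher in the 4n library at E16.5, P1 and P5, and 0.0208%, 0% and 0.406% that were at least 2-fold lower. At P1 all 10 genes were higher in the 4n library, as were 58.6% of all genes compared. The log2 ratios at P1 were 0.81 for Fosb, 0.79 (0.66 to 0.93) for Junb, 0.78 (0.60 to 0.97) for Jund, 0.72 (0.62 to 0.81) for Egr1 and 0.59 (0.53 to 0.66) for Fos. Ier2 and Btg2 were at 0.52 and 0.37, and Jun, Atf3 and Gadd45b at 0.23, 0.20 and 0.15. The median of the 10 was 0.55 beside 0.05 for all genes.

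At E16.5 the genes went apart between the ploidies. Fosb (0.56), Jund (0.30, 0.12 to 0.49), Egr1 (0.16, 0.06 to 0.25) and Jun (0.10, 0.02 to 0.18) were higher in the 4n library, Atf3 (-0.44, -0.51 to -0.36), Gadd45b (-0.29, -0.38 to -0.20) and Fos (-0.13, -0.20 to -0.06) were lower, and Junb, Ier2 and Btg2 did not differ beyond counting error. With 7 of 10 genes higher in the 4n library, against 54.6% of all genes, the median of the 10 was 0.08 and that of all genes 0.03. At P5 8 of 10 genes were higher in the 4n library, against 53.6% of all genes, with ratios from -0.10 for Fos to 0.22 (0.06 to 0.38) for Egr1 and a median of 0.12 beside 0.02 for all genes.

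**Figure D2:**
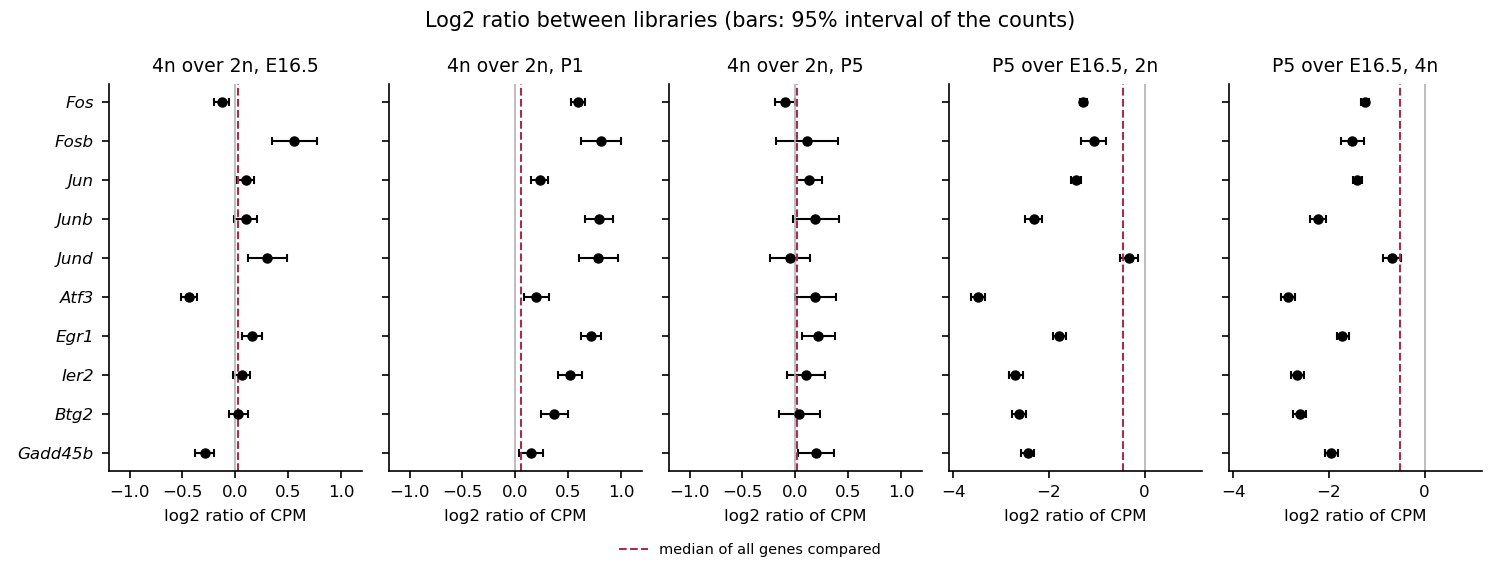
Log2 ratio of CPM for each gene (points) with the 95% interval of its UMI counts (bars), for 4n over 2n at 3 ages and for P5 over E16.5 in each ploidy, with the median of all genes compared as a dashed line. At P1 all 10 points lie right of 0, between 0.15 and 0.81, and in the P5 over E16.5 panels Atf3 lies farthest left, at -3.49 and -2.86, and Jund nearest to 0.

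The summed 4n over 2n ratio was lower at each age without CMs holding stromal marker UMIs. The difference between the ploidies was thus smaller at P1 but larger at E16.5. Without thinning, CMs with a UMI of a stromal marker other than Abcc9, which CMs express too, and Lyz2 made up 12.1%, 14.2% and 31.7% of the 2n libraries and 39.2%, 56.2% and 41.3% of the 4n libraries. When these CMs were left out, an alternative added after seeing the data, the log2 ratio of the summed 10 genes in 4n over 2n went from 0.49 to 0.25 at P1, from -0.06 to -0.25 at E16.5 and from 0.07 to -0.06 at P5. At P1 the Fos ratio was then 0.43, that of Fosb 0.29, of Junb 0.33, of Jund 0.62 and of Egr1 0.28. Ier2 and Btg2 were at 0.12, Jun and Atf3 at 0.10 and Gadd45b at 0.08, so that all 10 ratios were still above 0. At E16.5 Fosb, Jun and Egr1 then lay below 0, at -0.12, -0.13 and -0.12. So did Junb, Ier2 and Btg2, at -0.27, -0.13 and -0.13, which had not differed beyond counting error before. Fos, Atf3 and Gadd45b stayed below 0, and Jund alone stayed above it, at 0.15. The shares of all genes above and below 0 without these CMs are not given here, nor are intervals of these ratios. The difference between P5 and E16.5 was larger without these CMs, at -2.14 for the summed genes in 2n and -1.95 (beside -1.87 with them) in 4n CMs. Leaving them out without thinning also selects on depth. In E16.5-4n, CMs with at least 2 UMIs of stromal markers other than Abcc9 and Lyz2 had a median of 2540 UMIs and those with none 2021. The part of depth in these changes was not tested.

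CMs with stromal marker UMIs also had higher levels of most of the genes within each library. CMs thinned at random to 1000 UMIs each were split by UMIs of the stromal markers other than Abcc9 and Lyz2. Those with at least 2 such UMIs, 78 cells in E16.5-2n to 1043 in P1-4n, were set against those with none. The summed level of the 10 genes was 2115 against 1394, 1725 against 738 and 1033 against 336 CPM in the 2n libraries and 1916 against 1219, 1624 against 903 and 931 against 323 CPM in the 4n libraries. CMs with stromal UMIs were higher in all 6 libraries, with log2 ratios of 0.60 to 1.62, and of 0.30 to 0.98 when cells were split without thinning. The genes differed in this. Fosb, Jun, Junb and Ier2 were higher beyond counting error in 6 of 6 libraries, with log2 ratios of 1.37 to 3.11 for Fosb and 1.15 to 3.32 for Junb, and Fos, Egr1 and Btg2 were in 5 of 6. Atf3 and Gadd45b were higher beyond counting error in 1 of 6 libraries each, with median ratios of -0.04 and 0.25. Of all genes with at least 20 UMIs in the thinned cells, 5.25 to 15.9% were higher beyond counting error in the CMs with stromal UMIs. Whether these cells were doublets, CMs with free RNA of other cells or CMs that express the markers was not tested.

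**Figure D3:**
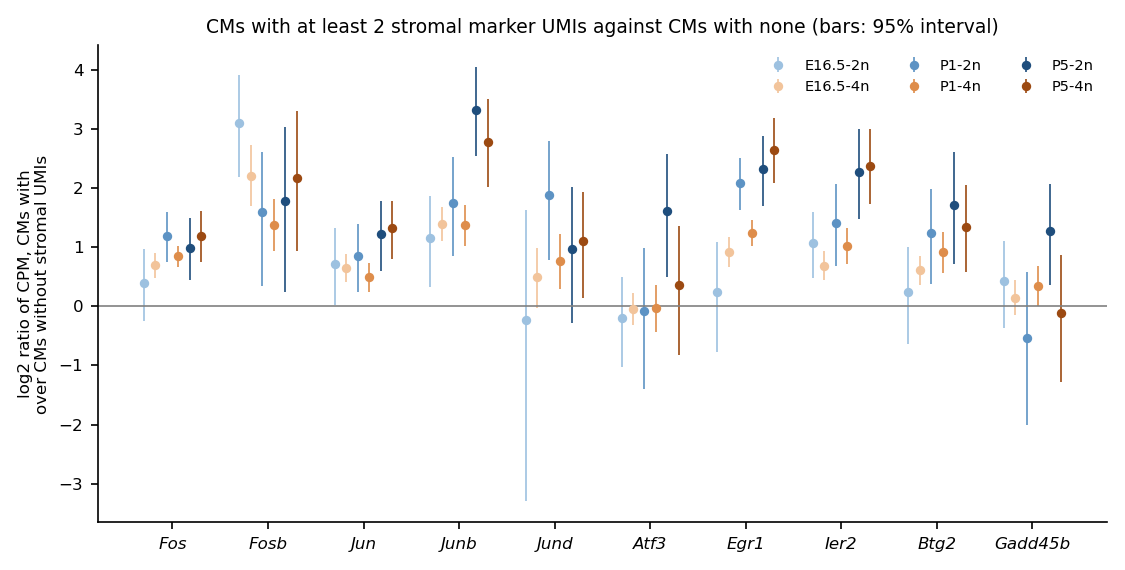
Log2 ratio of CPM of each gene (horizontal axis) in CMs with at least 2 stromal marker UMIs over CMs with none, by library (colours). Bars are 95% intervals, cells were thinned to 1000 UMIs, and Abcc9 and Lyz2 were not among the stromal markers. Junb, Fosb, Egr1 and Ier2 lie mostly above 1, up to 3.32 for Junb in P5-2n, whereas Atf3 lies near 0 in all libraries but P5-2n and P5-4n.

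Cycling CMs differed from other CMs at E16.5. Markers of cycling cells such as Top2a, Mki67 and Cenpf summed to 671, 107 and 293 CPM in the 2n libraries and 3203, 462 and 1624 CPM in the 4n libraries. CMs with at least 2 UMIs of these markers had a lower summed level of the 10 genes than CMs with none in E16.5-2n (1163 against 1468 CPM, log2 ratio -0.34, -0.44 to -0.23), E16.5-4n (1137 against 1569 CPM, -0.46, -0.54 to -0.39) and P1-4n (779 against 1093 CPM, -0.49, -0.67 to -0.31), after thinning. Without thinning these ratios were -0.20, -0.33 and -0.22. In P1-2n, with 113 such cells, the ratio was -0.40 (-0.78 to -0.05, 575 against 761 CPM) after thinning but -0.07 (-0.19 to 0.05) without it. At P5 the sign was not the same, with 474 against 368 CPM in P5-2n (0.37, 0.07 to 0.64) and 388 against 372 in P5-4n (0.06, -0.11 to 0.23). Lower beyond counting error in cycling CMs were 7 of the 10 genes in E16.5-2n, against 9.38% of the 4627 genes with at least 100 UMIs in the thinned cells, 7 in E16.5-4n, against 16.6% of 4486, and 5 in P1-4n, against 7.66% of 3930. In E16.5-4n Fosb (-1.12, -1.68 to -0.56), Junb (-0.94, -1.24 to -0.64) and Fos (-0.70, -0.90 to -0.50) had the lowest ratios. Gadd45b differed in none of the 6 libraries beyond counting error. CMs with stromal marker UMIs were kept in this split. Across thinned CMs of E16.5-4n, the summed genes and the cycling marker UMIs had a Pearson r of -0.13. This r was -0.08 once CMs holding a UMI of any stromal marker were left out. With and without such CMs, E16.5-2n stood at -0.07 and -0.08. P1-4n stood at -0.05 and -0.06. The part of stromal transcripts in the difference between cycling and other CMs was not tested. In P5-2n 1 of the 10 genes, Atf3, was higher beyond counting error in cycling CMs (55.6 against 18.8 CPM, 1.56, 0.59 to 2.43). Of the 7903 genes with at least 20 UMIs in these thinned cells, 8.67% were, a share near that of the 10 genes.

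Within each ploidy the share of CMs with a UMI of a gene followed its level over the ages once depth was made equal, except for Jund. From P1-2n to P5-2n Jund went from 21.3 to 25.3 CPM but from 2.38% to 2.28% of CMs. Small differences between the ploidies of an age did not always keep their direction. Fosb was at 10.8 CPM and 1.00% in P5-2n and at 11.6 CPM and 0.958% in P5-4n. Without thinning, 83.0%, 61.0% and 57.4% of CMs in the 2n libraries and 83.0%, 82.4% and 65.2% in the 4n libraries had a UMI of at least 1 of the 10 genes, but the libraries differed in median UMIs per CM. Thinning to 1000 UMIs left out 163, 700 and 20 CMs of the 2n libraries and 23, 0 and 0 of the 4n libraries. The shares were then 65.0% (exact binomial 95% interval 63.8 to 66.3), 43.3% (42.1 to 44.5) and 26.2% (24.9 to 27.5) in 2n and 64.8% (63.4 to 66.1), 54.1% (52.7 to 55.5) and 26.7% (25.3 to 28.1) in 4n CMs. At equal depth both P5 libraries were thus the lowest, both E16.5 libraries the highest, and P1-4n above P1-2n. No cell type known to lack the 10 genes was among these cells, so that the share due to free RNA could not be read here. For scale, Hbb-bs, a globin message of red blood cells, had a UMI in 55.5 to 87.8% of CMs without thinning. The like range for at least 1 of the 10 genes was 57.4 to 83.0%.

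Atf3 had a UMI in 18.4% (17.3 to 19.4), 5.33% and 1.89% of thinned 2n CMs and in 15.1%, 6.53% and 2.38% (1.91 to 2.93) of thinned 4n CMs. For Fos these shares were 18.1%, 14.9% and 8.58% in 2n and 16.9%, 21.6% and 7.69% in 4n CMs. Jund had the flattest shares, 2.91%, 2.38% and 2.28% in 2n and 4.14%, 4.09% and 2.55% in 4n CMs. CMs with UMIs of 3 or more of the 10 genes made up 13.8%, 5.09% and 1.46% of the 2n libraries and 13.0%, 9.52% and 1.51% of the 4n libraries. Before thinning these shares were 42.3%, 16.3% and 13.0% in 2n and 42.4%, 43.2% and 17.8% in 4n CMs.

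The UMIs of the genes were spread unevenly over CMs. The tenth of thinned CMs with the most UMIs of the 10 genes held 36.0%, 45.3% and 56.3% of these UMIs in the 2n libraries and 34.7%, 40.6% and 55.9% in the 4n libraries, a share that is larger where more cells hold none. The variance of the summed UMI count over cells divided by its mean was 1.84, 1.83 and 1.71 in 2n and 1.69, 1.96 and 1.77 in 4n CMs, with no order by age. For single genes this ratio, which is 1 for a Poisson count, was 1.28 to 1.44 for Fos and 1.13 to 1.34 for Egr1 over the 6 libraries. Its median over all genes of a library was 1.01, and Jund lay between 0.975 and 1.03. Fos and Egr1 thus had a higher ratio than Jund in each of the 6 libraries. This ratio also grows with the mean, which in E16.5-2n was 0.234 UMIs per thinned CM for Fos, 0.119 for Egr1 and 0.0300 for Jund. The part of abundance in this difference was not tested. In P1-2n the summed level was also higher in CMs of low depth, from 953 CPM (910 to 997) in the depth quartile with the fewest UMIs to 604 (587 to 622) in the one with the most, and in P1-4n from 1259 (1211 to 1309) to 905 (886 to 924). At P5 the quartile with the fewest UMIs was also the highest, at 488 CPM in 2n and 455 in 4n CMs against 304 to 376 CPM in the other quartiles. In E16.5-2n the level also fell with depth, from 1524 CPM (1470 to 1581) over 1443 and 1420 to 1387 (1358 to 1417). In E16.5-4n the quartiles spanned 1342 to 1396 CPM. The mitochondrial share was also highest in the shallowest quartile of each library, at 18.9% against 15.4% in the deepest in P1-2n and 21.7% against 16.6% in P5-4n. Across thinned CMs, by contrast, the summed genes correlated weakly and negatively with mitochondrial UMIs in all 6 libraries, with Pearson r from -0.14 to -0.04. The part of the mitochondrial share in the levels was not tested.

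Most pairs of the genes were detected together in the same CMs more often than the product of their shares. Of the 45 pairs of genes, 41, 44 and 37 in the 2n libraries and 42, 44 and 41 in the 4n libraries had more CMs with both genes than that product gives, after thinning to 1000 UMIs. The median ratio over pairs was 1.32, 1.73 and 1.79 in 2n and 1.32, 1.62 and 2.02 in 4n CMs. Pairs share cells, genes and library, and Pearson correlations over the 3654 to 6640 CMs of a library were weak, with a maximum of 0.16. Their medians over pairs were 0.04, 0.04 and 0.03 in 2n and 0.05, 0.07 and 0.04 in 4n CMs. Unlike the ratio of joint detection, these medians were not highest at P5. Without CMs holding a UMI of any stromal marker, the pairs above the product numbered 42, 45 and 32 in 2n and 41, 42 and 33 in 4n CMs. Pairs of other genes were not counted, so that no share over all genes stands beside these counts. The joint counts of the P5 libraries rest on few cells.

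Fos and Egr1 were the pair with the highest correlations, 0.09 to 0.16 over the 6 libraries. In 2n CMs Egr1 had a UMI in 17.5%, 17.3% and 8.75% of cells with a UMI of Fos and in 8.71%, 7.09% and 2.99% of cells without. In 4n CMs it had one in 17.6%, 22.7% (20.1 to 25.3 at P1) and 8.90% of cells with Fos and in 10.5%, 10.7% (9.72 to 11.7 at P1) and 3.11% of cells without. The share was thus higher among cells with Fos in each of the 6 libraries. The AP-1 partners Fos and Jun showed the same direction, since Jun had a UMI in 19.7% of CMs with and 13.9% of CMs without Fos in E16.5-2n and in 12.8% (9.14 to 17.3) and 5.90% (5.13 to 6.75) in P5-4n. For Jund and Fos the link was weak and mostly unresolved. The share of CMs with a UMI of Jund was lower among those with Fos only for E16.5-2n, at 2.69% against 2.96% (2.48 to 3.49) without Fos. It was higher for each other library, at 4.64% against 4.04% for E16.5-4n, 4.59% against 3.95% for P1-4n and 3.18% against 2.19% for P5-2n. For P5-4n it was 2.85% (1.24 to 5.53) against 2.52% (2.02 to 3.11). P1-2n was the only library where the intervals did not overlap (3.85%, 2.74 to 5.25, against 2.12%, 1.76 to 2.53). The 9 pairs that contain Jund had median ratios of joint detection of 0.998 to 1.30 over the libraries, and the 36 other pairs of 1.33 to 2.40.

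**Figure D4:**
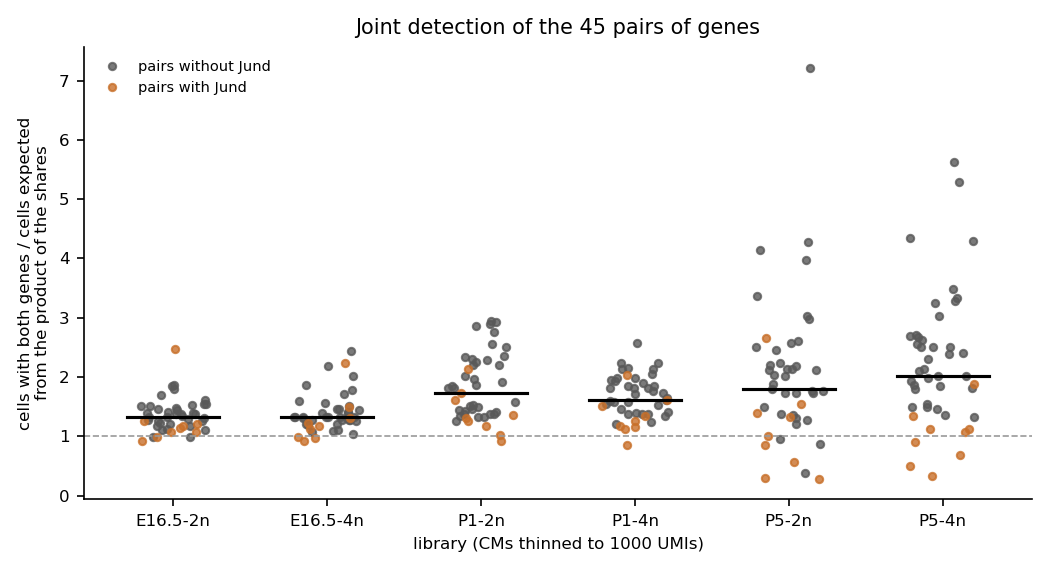
Number of CMs with UMIs of both genes divided by the number that the product of their shares gives, for the 45 pairs in each library after thinning to 1000 UMIs, with pairs containing Jund in orange, the other pairs in grey, medians as black bars and 1 as a dashed line. Most grey points lie above 1, the medians go from 1.32 at E16.5 to 2.02 in P5-4n, and the medians of the orange points lie between 0.998 and 1.30.

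Of 1398 genes with at least 1000 UMIs in every library, those whose UMIs correlated most with the summed 10 genes across thinned CMs were Gadd45g (median r over libraries 0.13, 0.08 to 0.16), Cyr61 (0.11, 0.10 to 0.12), Hes1 (0.11, 0.08 to 0.16), Hspa1a (0.10, 0.06 to 0.13) and Actb (0.10, 0.02 to 0.12). Gadd45g is a relative of Gadd45b, Cyr61 encodes a secreted matrix protein induced early by growth factors, Hes1 is a Notch target, Hspa1a is an inducible heat shock protein and Actb is cytoplasmic actin. The likeness is weak in sparse counts and is given as a description, without a test.

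Other genes of the early response and of stress pathways, from lists chosen with earlier results of these data known, were compared in the same libraries. Of all genes compared, 16.8% in 2n and 21.0% in 4n CMs were at least 2-fold lower at P5 than at E16.5. The share of all genes lower in both ploidies was not counted. Of 11 other immediate early transcription factors, 6 were compared in 2n CMs, and 5 of these were at least 2-fold lower at P5 than at E16.5. Klf2, Klf4, Klf6 and Klf10 were at least 2-fold lower in both ploidies, at -1.60, -1.56, -1.77 and -1.41 in 2n CMs. Nr4a1, an orphan nuclear receptor of the early wave and the most abundant of that list, was at 64.6 CPM in E16.5-2n and 31.7 in P5-2n (-1.03, -1.18 to -0.88) and at 63.6 and 33.0 in 4n CMs (-0.94, -1.10 to -0.79). Of 14 feedback inhibitors of the response, 10 were compared in both ploidies. Of these, Dusp6, Zfp36, Ier3, Ier5 and Socs3 were at least 2-fold lower at P5 in both. Zfp36, which destabilises AU-rich messages, was at -2.13 (-2.38 to -1.88) in 2n and -1.91 (-2.15 to -1.67) in 4n CMs. The most abundant of that list, Zfp36l1 and Ier3, were at -0.97 and -1.53 in 2n CMs. Of 8 other bZIP partners, 5 were compared in both ploidies. Maff, a small Maf protein, was at 30.4 CPM in E16.5-2n and 1.90 in P5-2n, and at 30.5 and 2.23 CPM in the 4n libraries (-3.77, -4.27 to -3.31). Mafk was also at least 2-fold lower in both ploidies, and the most abundant, Atf2 and Fosl2, were at -0.34 and -0.88 in 2n CMs. Between E16.5 and P1 the genes of these lists at least 2-fold lower in both ploidies were Maff, Dusp6 and Ier5, and between P1 and P5 they were Maff, Klf10 and Zfp36. Of all genes compared, 12.1% in 2n and 11.6% in 4n CMs were so in the first step, and 1.98% and 5.85% in the second.

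The factors that act upstream of these genes were compared in the same way. Of 11 upstream genes such as Srf and Creb1, 10 were compared in each ploidy and none was at least 2-fold lower at P5. Their median ratios were -0.11 in 2n and -0.42 in 4n CMs, beside -0.45 and -0.51 for all genes. Srf, which binds the CArG box, was at 48.0 CPM in E16.5-2n and 43.9 in P5-2n (-0.13, -0.28 to 0.02). Among 6 secreted targets, 5 were compared in both ploidies, and no gene was at least 2-fold lower at P5 in both. Cyr61 and Vegfa, the most abundant, were at -0.98 and -0.37 in 2n CMs. Hbegf was at least 2-fold lower at P1 than at E16.5 in both ploidies.

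Of 12 heat shock genes, 5 were at least 2-fold lower at P5 in 2n and 6 in 4n CMs, against 16.8% and 21.0% of all genes compared. Hspa1a, Hsp90aa1, Dnaja1 and Dnajb1 were so in both, although Hspa1a shares near-identical sequence with Hspa1b, which was at 0.33 (0.13 to 0.54) in 2n CMs. The abundant Hspa8 and Hspb1 were at -0.46 and -1.29. Of 9 growth arrest and p53 genes, Gadd45g, Btg1, Sesn2 and Ppp1r15a were at least 2-fold lower in both ploidies, with Gadd45g at 332 CPM in E16.5-2n and 97.6 in P5-2n. By contrast Ccng1, a p53 target, was higher at P5 than at E16.5 (148 and 182 CPM in 2n, 0.30, 0.22 to 0.38). Of 6 genes of the integrated stress response, 4 were compared and all 4, Atf4, Ddit3, Asns and Ddit4, were at least 2-fold lower at P5 in both ploidies, with Atf4 and Ddit3 at -1.37 and -1.71 in 2n CMs. Hsp90aa1, Gadd45g and Btg1 were at least 2-fold lower already at P1, and Sesn2, Trib3 and Asns were at least 2-fold lower at P5 than at P1, in both ploidies. At P1, 2 of the 5 compared genes of that list were at least 2-fold higher than at E16.5 in both ploidies, Asns, an asparagine synthetase, (7.11 and 25.3 CPM in 2n, 5.74 and 20.4 CPM in 4n) and Trib3 (2.74 and 12.4 CPM in 2n, 2.98 and 8.03 CPM in 4n). Of all genes compared, 1.98% in 2n and 2.88% in 4n CMs were at least 2-fold higher at P1.

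At P1, where the 10 genes were higher in 4n CMs, all 8 other immediate early factors compared and all 12 feedback inhibitors compared were also higher in the 4n library, with medians of 0.88 and 0.52 beside 0.05 for all genes. Of all genes compared, 58.6% were higher in that library. Klf2, at 26.5 CPM in P1-2n and 66.0 in P1-4n (1.31, 1.16 to 1.47), is a factor that endothelial cells express strongly. The 12 heat shock genes had a median of 0.01 and the 5 compared genes of the integrated stress response of 0.00. The part of stromal transcripts in these list medians was not tested.

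**Figure D5:**
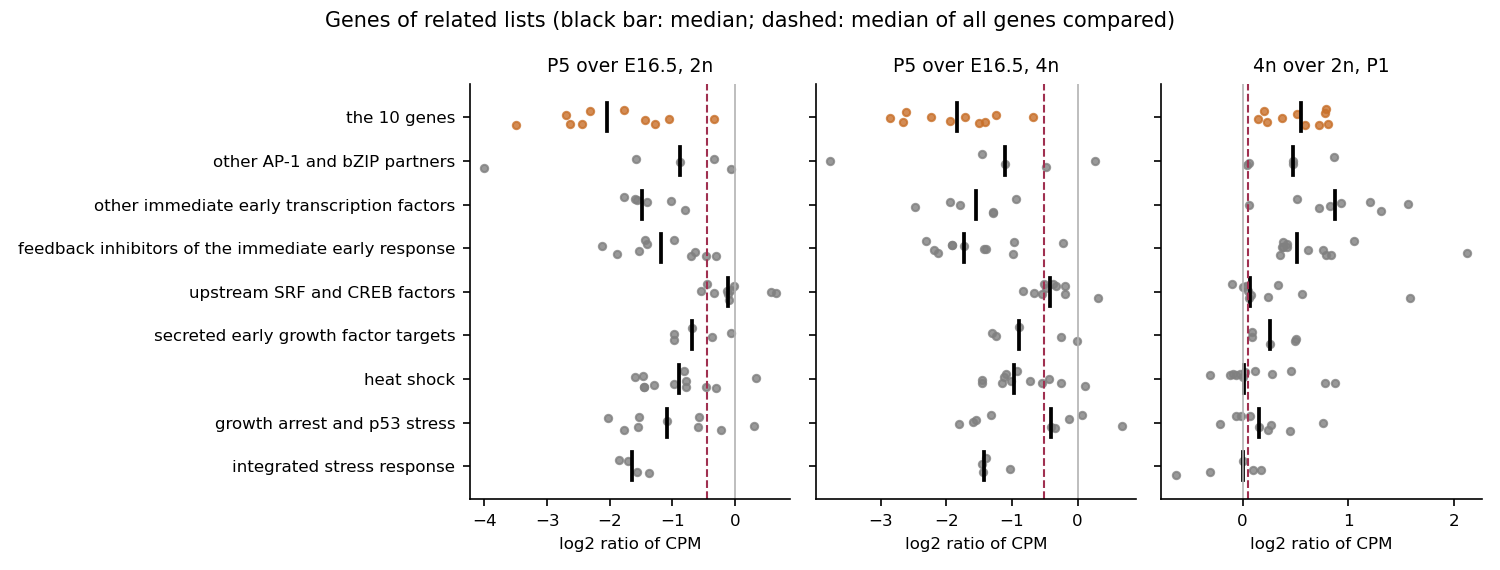
Log2 ratio of CPM of each gene with at least 100 UMIs over both libraries (points) by list, for P5 over E16.5 in 2n and 4n CMs and for 4n over 2n at P1, with the list median as a black bar and the median of all genes compared as a dashed line. The 10 genes (orange) have medians of -2.05, -1.84 and 0.55, and the upstream factors have medians of -0.11, -0.42 and 0.07.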

How the data were processed

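Droplet-based 3′ scRNA-seq libraries were analysed, 1 per group. Per the labels and the study's methods, the authors demultiplexed and counted the reads with Cell Ranger, with STAR and GRCm38, and deposited raw UMI counts of each gene in each called cell. The version of Cell Ranger is not given in the sources used here. Counts were strand-specific and took in exonic and intronic reads. Deposited text files, a list of symbols and the authors' own comparison with fold changes and p-values, were not used.

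The 10 genes and the lists were chosen with earlier results of these data known. UMIs were summed over cells with at least 1 UMI of each of 4 CM markers and divided by all UMIs of these cells (CPM). Ratios between libraries carry an exact 95% interval from dividing the UMIs binomially between libraries, levels a Poisson and shares a Clopper-Pearson interval, all for counting error only. PCR duplicates were removed by UMI. A gene was compared with at least 100 UMIs over both libraries and counted as different at 2-fold or more. Cells were thinned to 1000 UMIs without replacement. Named genes were the 10 genes, the 2 most abundant of each other list, those past 2-fold in both ploidies, and the 5 most correlated genes, with others named after their values were seen. A gene that this rule would name is not reported here. Libraries held 13213992 to 19714177 UMIs. Python 3.11.15, numpy 2.4.6, scipy 1.17.1 and pandas 2.3.3 were used, and the interval of the ratio was tested on simulated data. Other scalings, other cell filters and removal of CMs with stromal marker UMIs were tried as alternatives.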

Additional observations from a re-analysis of the deposited data

Results flagged for a closer look

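The 4n over 2n ratio had opposite signs beyond counting error at different ages for 3 of the 10 genes and for their sum, with 1 library behind each value, and the difference between ages was not tested. The share of all genes with such opposite signs was not counted, so that 3 of 10 has nothing to be set against. Fos was at -0.13 on the log2 scale at E16.5 and 0.59 at P1. Atf3 was at -0.44 at E16.5 and 0.20 at P1. Gadd45b was at -0.29 at E16.5, 0.15 at P1 and 0.20 at P5. The summed genes were at -0.06 at E16.5, 0.49 at P1 and 0.07 at P5. Without CMs holding a stromal marker UMI other than Abcc9 and Lyz2 the summed ratio was -0.25, 0.25 and -0.06, so that P5 then had the sign of E16.5.

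The 423 cells left out because they lacked a UMI of at least 1 of the 4 CM markers entered no comparison. They held the 10 genes at a summed 2227 CPM (2100 to 2360, from 1145 UMIs), above the level in the CMs of every library. In the order E16.5, P1 and P5 these cells stood at 2766 (2433 to 3131), 1365 and 3119 (2713 to 3568) CPM in the 2n libraries and at 2019, 2027 and 3592 (2968 to 4308) CPM in the 4n libraries. In the P5 libraries, where CMs had their lowest levels, only 49 and 24 such cells were present.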

How the results depend on the processing

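No paired analysis was possible because the labels give 1 library per group. Of 990 log2 ratios recomputed under other settings, 11 changed sign after a main value whose interval held a single sign. Ratios whose main interval held both signs are not in this count, and some of these changed sign too. For Junb, 4n over 2n at E16.5 went from 0.10 to -0.27 without CMs holding stromal UMIs other than Abcc9 and Lyz2. Of 180 counts of genes past 2-fold, 5 moved by more than 1.5 times. Taking all cells, asking for 2 UMIs of each CM marker or leaving out cells with a shared barcode moved none of 99 ratios each beyond its interval. The alternatives of leaving out CMs with stromal UMIs other than Abcc9 and Lyz2 and leaving mitochondrial genes out of the total were chosen after seeing the data. The values below are log2 ratios of the summed 10 genes unless a gene is named, and for the changes the cause was not tested. Counts of genes past 2-fold below stand without the share of all genes under the same setting.

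Without CMs holding any stromal marker UMI, 4n over 2n was -0.26 at E16.5, 0.22 at P1 and -0.01, of opposite sign, at P5. Fosb, Jun and Egr1 also turned at E16.5, to -0.26, -0.13 and -0.15, and Egr1 turned to -0.07 in P1-4n over E16.5-4n. The sum was then -0.54 for P1-4n over E16.5-4n, -1.16 and -1.39 for P5 over P1 in 2n and 4n CMs, and -2.17 and -1.92 for P5 over E16.5, with 8 genes at least 2-fold lower in P5-2n than in P1-2n. With Abcc9 and Lyz2 set aside, 4n over 2n was -0.25, 0.25 and -0.06, of opposite sign at P5, and Fosb, Jun and Egr1 turned to -0.12, -0.13 and -0.12 at E16.5 and Egr1 to -0.10 in P1-4n over E16.5-4n. Junb, Ier2 and Btg2, which had not differed beyond counting error at E16.5, were then at -0.27, -0.13 and -0.13. The sum was -1.03 and -0.53 for P1 over E16.5 in 2n and 4n CMs, -1.11 for P5-2n over P1-2n, with 8 genes at least 2-fold lower, and -2.14 and -1.95 for P5 over E16.5.

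With the median of ratios, the sum was -0.68 and -0.12 for P1 over E16.5 in 2n and 4n CMs, with 3 and 1 genes at least 2-fold lower, -0.91 and -1.31 for P5 over P1, and -1.57 and -1.40 for P5 over E16.5, where Jund turned to 0.10 in 2n CMs. With a total that omits the 50 most abundant genes, it was -0.75, with 3 genes at least 2-fold lower, and -0.20, then -0.97 and -1.38, then -1.72 and -1.58 in the same order, and -0.09 for 4n over 2n at E16.5. Without mitochondrial genes in the total, P1 over E16.5 was -0.85 and -0.30, and P5 over E16.5 was -1.84 and -1.70.

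As the mean over cells of each cell's CPM, P1 over E16.5 was -0.86 and -0.33 in 2n and 4n CMs, P5 over P1 -1.07 and -1.50, and P5 over E16.5 -1.93 and -1.82. Without CMs of fewer than 2000 UMIs, 4n over 2n at P1 was 0.62, P1 over E16.5 was -1.13 and -0.48, and P5-2n over P1-2n was -0.89. Between cycling and other CMs, thinning to 1000 UMIs turned Egr1 to -0.66 in P5-2n and -0.40 in P5-4n. With 1 library per group, the spread between animals is unknown.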
